A study of Mus musculus with 6 samples.

Results

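Nr4a1, Nr4a2 and Nr4a3, the 3 genes of the Nr4a family of orphan nuclear receptors, were examined in lungs of Zpbp2 KO and WT mice, and all 3 were found by symbol among the 47069 genes of the count table. They were chosen on these same KO and WT values, so the differences of the 3 genes between genotypes are given as a description with no test. The study asked whether deletion of the 5′ part of Zpbp2, which lies in the same chromosomal region as the clock gene Nr1d1, alters lung transcription. The lungs came from 3 WT mice (WT4, WT5 and WT6), which were C57BL/6J, and from 3 KO mice (KO4, KO5 and KO6) with the Zpbp2 deletion in the germline on the same background. All lungs were from adults and were taken at ZT10, that is, 10 h after lights on, and exact ages were not given in the sources used here. WT mice were bred in the colony that held the KO mice but are not stated to be littermates. Each library is 1 mouse.

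NR4A proteins are transcription factors whose ligand pocket is filled by side chains of the receptor itself, so they act without a known hormone and their activity follows largely from how much is made. The genes are immediate early genes: cAMP acting through CREB, calcium acting through MEF2, and growth factors switch them on within minutes, and their RNA decays quickly. The proteins bind an extended single site called NBRE, and NR4A1 and NR4A2 also pair with the retinoid X receptors. In lung and blood they are known from macrophages, endothelium, smooth muscle and activated lymphocytes, and patrolling Ly6C-low monocytes depend on Nr4a1.

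Nr4a1 (ENSMUSG00000023034, Nur77) lies on the plus strand of chr15:101254269-101274795 of GRCm38. Nr4a2 (ENSMUSG00000026826, Nurr1) lies on the minus strand of chr2:57106830-57124003, and Nr4a3 (ENSMUSG00000028341, Nor1) on the plus strand of chr4:48045153-48086447. GENCODE release 21 annotates 0 genes that overlap any of the 3. The sequences before their RefSeq start sites are shown because all 3 hold the same short element, the 5-base core of the cAMP response element (TGACG, read on both strands as TGACG or CGTCA), which is given in capitals. They are 5′ to 3′ on the strand of the gene, from RefSeq GRCm38.p6. For Nr4a1 and Nr4a2 these are the 250 bases before the start site, on chr15:101266596-101266845 (plus strand, inside the gene span of a longer isoform but in no annotated exon) and chr2:57124004-57124253 (minus strand). For Nr4a3, whose RefSeq start lies inside the first GENCODE exon, only 30 bases that precede that exon are given, chr4:48045067-48045096 (plus strand).
Nr4a1: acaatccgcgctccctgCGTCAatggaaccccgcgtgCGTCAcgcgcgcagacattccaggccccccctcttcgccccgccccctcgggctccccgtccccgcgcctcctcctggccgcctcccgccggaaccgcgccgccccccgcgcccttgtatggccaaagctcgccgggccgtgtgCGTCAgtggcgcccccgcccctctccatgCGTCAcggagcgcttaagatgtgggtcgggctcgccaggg
Nr4a2: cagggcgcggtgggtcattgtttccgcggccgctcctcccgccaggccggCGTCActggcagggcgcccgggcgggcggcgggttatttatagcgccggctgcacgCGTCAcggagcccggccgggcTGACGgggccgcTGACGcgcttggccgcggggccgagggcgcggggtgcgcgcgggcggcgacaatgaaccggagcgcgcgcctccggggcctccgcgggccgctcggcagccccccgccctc
Nr4a3: aggagggTGACGtagcgtcccatgtCGTCA

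In windows of 300 bases, from 250 before to 50 after the start site, the core stood 4 times in each of the 3 genes. Of the 32851 mouse windows of this length, 20.8% held it at least once and 0.231% at least 4 times. Its first bases stood at -233, -213, -69 and -40 in Nr4a1, at -200, -144, -123 and -111 in Nr4a2, and at -231, -213, -205 and -147 in Nr4a3, counted from each start site. The full palindrome TGACGTCA, which contains the core on both strands, was in none of the 3 windows and in 1.79% of all. The NBRE letters AAAGGTCA were also in none of the 3 and in 1.51% of all. A MEF2 site was found once, in Nr4a2, and in 3.19% of all windows, and the CArG box of serum response factor in none of the 3 and in 1.63% of all. These are matches of letters in 1 window per gene and say nothing of binding.

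Gene counts summed to 19981428 in the shallowest library and to 46796908 in the deepest, at which 3 counts, the floor taken as detected, equal between 0.0629 and 0.148 CPM (counts scaled to a common library size after TMM adjustment). The floor covers counting error only. The first principal component, with 46.6% of the variance, separated KO from WT mice. Zpbp2 RNA was at or below the floor in all 6 libraries (at most 2 counts), so lung RNA does not check the deletion. The mice of the study were of both sexes, but all 6 libraries had Xist at 715 to 994 CPM, and Ddx3y, a Y-linked gene, was at 0 in all but KO5, which had 9 counts. Surfactant and other type 2 alveolar markers of lung summed to 17336 to 24085 CPM. Of the 17037 genes that passed the filter on low counts, 634 were called higher in KO mice (3.72%) and 455 lower (2.67%) at an adjusted p of at most 0.05 (edgeR's quasi-likelihood test), or 734 and 312 when library totals alone set the scale. Without WT5 the calls fell to 1 (3168 genes at an unadjusted p under 0.05), without WT6 to 63, without KO6 to 117 and without WT4 to 254, against 1278 without KO4. Groups did not overlap, with KO higher, in 17.0% of genes, and with KO lower in 15.6%. The median log2 fold change (logFC, KO against WT) over all genes tested was 0.003.

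Nr4a1 was the most abundant of the family and the most variable. It was counted 583, 447 and 3063 times in WT4, WT5 and WT6, and 1211, 1393 and 1124 times in KO4, KO5 and KO6. Scaled to library size these are 23.5, 21.4 and 99.1 CPM in WT mice and 59.2, 29.2 and 55.5 CPM in KO mice. The groups overlapped: WT6 held the highest level of all 6 mice and WT4 and WT5 the lowest, with the 3 KO mice in between. WT6 was 4.41 times the mean of WT4 and WT5. The mean of the WT group was 48.0 ± 44.2 CPM (SD, n = 3) and that of the KO group 48.0 ± 16.3 CPM (SD, n = 3), and the logFC was -0.02 (standard error 0.60). That value rested on WT6, since without it the logFC was 1.09, and with any other mouse left out it lay between -0.37 (without WT5) and 0.24 (without KO5).

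Nr4a2, which is best known from dopamine neurons and is induced in macrophages, was counted 286, 209 and 420 times in the WT mice, in the order above, and 181, 407 and 171 times in the KO mice. Its levels were 11.5, 10.02 and 13.6 CPM in WT mice and 8.85, 8.54 and 8.44 CPM in KO mice. All 3 KO mice lay below all 3 WT mice, and the KO values were close together. The means were 11.7 ± 1.79 CPM (SD, n = 3) and 8.61 ± 0.212 CPM (SD, n = 3), a logFC of -0.45 (standard error 0.128), which puts the KO level at 73.4% of WT. With 1 mouse left out in turn the logFC lay between -0.55 (without WT5) and -0.33 (without WT6).

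Nr4a3 showed the widest separation of the genotypes in the family. It was counted 244, 238 and 354 times in the WT mice and 85, 186 and 89 times in the KO mice, or 9.82, 11.4 and 11.4 CPM in WT mice and 4.16, 3.90 and 4.39 CPM in KO mice. The lowest WT mouse was above the highest KO mouse by more than the whole range of either group. The means were 10.9 ± 0.927 CPM (SD, n = 3) and 4.15 ± 0.246 CPM (SD, n = 3), a logFC of -1.39 (standard error 0.120), so that the KO level was 38.0% of WT. Of the 17037 genes tested, 28 had a lower logFC than Nr4a3, 668 a lower one than Nr4a2 and 7654 a lower one than Nr4a1. Leaving out any 1 mouse kept the logFC of Nr4a3 between -1.46 and -1.35. In bulk lung RNA, fewer cells that express a gene and less of its RNA per cell cannot be told apart.

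**Figure D1:**
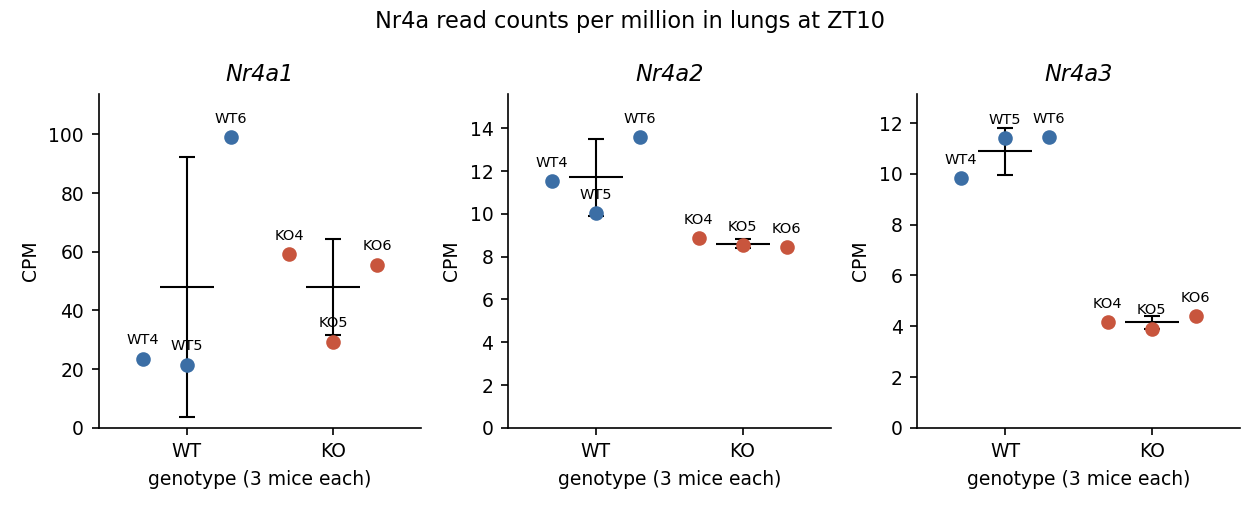
Level of each Nr4a gene in CPM (vertical axis, from 0) in 3 WT and 3 KO lungs at ZT10, with 1 point per mouse and the mean ± SD of each group in black. Nr4a1 in WT6 stands at 99.1 CPM above every other mouse, whereas all KO points lie below all WT points for Nr4a2 and for Nr4a3.

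The 3 genes differed in how much mice of 1 genotype varied. The SD of log2 CPM among WT mice was 1.23 for Nr4a1, larger than that of 99.8% of 5465 genes within 2-fold of its mean level, and among KO mice it was 0.556, larger than for 98.6% of them. For Nr4a2 the SD was 0.211 in WT mice and 0.0333 in KO mice, larger than for 84.7% and 4.95% of 3900 genes of like level. Nr4a3 varied little in both groups, with SDs of 0.120 in WT mice (47.4% of 3377 genes had a smaller one) and 0.0766 in KO mice (17.7%). Within the family, Nr4a1 thus had most of the spread between mice of the same genotype and Nr4a3 least of it in WT mice.

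**Figure D2:**
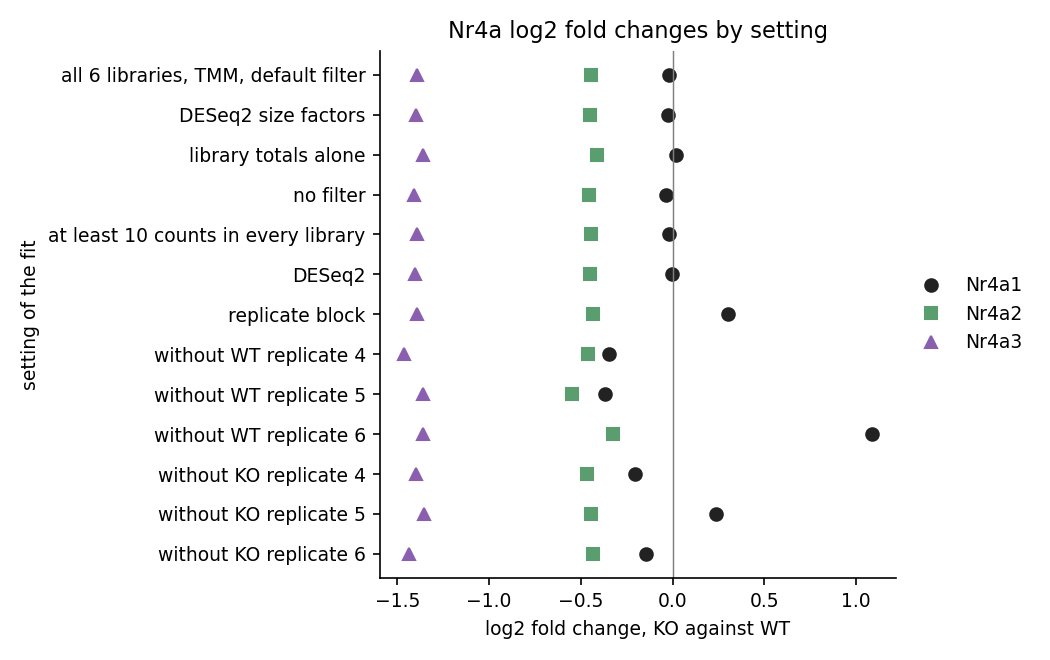
The logFC of KO against WT mice (horizontal axis) for the 3 Nr4a genes under each setting of the fit (vertical axis), with 1 symbol per gene. Nr4a2 and Nr4a3 stay left of 0 throughout, between -0.55 and -0.33 and between -1.46 and -1.35, whereas Nr4a1 crosses 0 and reaches 1.09 without WT6.

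To compare the levels of the genes with each other, counts were divided by exon length in kilobases as well as by library size (RPKM). Nr4a1 had 6.69, 6.10 and 28.2 RPKM in WT4, WT5 and WT6 and 16.9, 8.33 and 15.8 RPKM in KO4, KO5 and KO6. Nr4a2 had 2.84, 2.47 and 3.35 RPKM in the WT mice and 2.18, 2.10 and 2.08 RPKM in the KO mice. Nr4a3 had 1.64, 1.91 and 1.91 RPKM in the WT mice and 0.694, 0.652 and 0.734 RPKM in the KO mice. The order Nr4a1, Nr4a2, Nr4a3 held in 6 of 6 mice. On the log2(RPKM + 0.1) scale Nr4a1 exceeded Nr4a2 by 2.20 ± 0.842 (SD, n = 6) and Nr4a3 by 3.26 ± 1.19 (SD, n = 6), and Nr4a2 exceeded Nr4a3 by 1.06 ± 0.496 (SD, n = 6). Each of these 3 pairs gave p = 0.03125 in a two-sided exact sign-flip permutation test over the 6 mice, the smallest p that 6 mice allow, with the same value after Benjamini-Hochberg adjustment over the 3 pairs. The difference between Nr4a2 and Nr4a3 was 0.75, 0.36 and 0.78 in WT4, WT5 and WT6 and 1.52, 1.55 and 1.39 in KO4, KO5 and KO6, so that Nr4a2 and Nr4a3 lay further apart in every KO mouse than in any WT mouse. The test pooled mice of both genotypes. The mean difference of each of the 3 pairs therefore includes the KO against WT differences on which the genes were chosen. Nr4a1 minus Nr4a3 was 1.96, 1.63 and 3.82 in WT4, WT5 and WT6 and 4.42, 3.49 and 4.25 in KO4, KO5 and KO6.

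Among 49 nuclear receptor genes ranked by mean RPKM over the 6 mice, Nr4a1 was 10th, Nr4a2 23rd and Nr4a3 28th. The clock repressors Nr1d1 and Nr1d2 and the glucocorticoid receptor Nr3c1 headed the ranking. Nr4a1 spanned its neighbours in rank, the liver X receptor Nr1h3 (13.9 to 19.1 RPKM) and the orphan receptor Nr2f2 (12.4 to 15.8 RPKM), and did not differ from them beyond its spread. Every Nr4a2 value was below the thyroid hormone receptor Thrb (3.53 to 3.98 RPKM), whereas the retinoic acid receptor Rarb (2.07 to 2.67 RPKM) overlapped it. Nr4a3 took place 27 by the WT mean and place 34 by the KO mean.

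**Figure D3:**
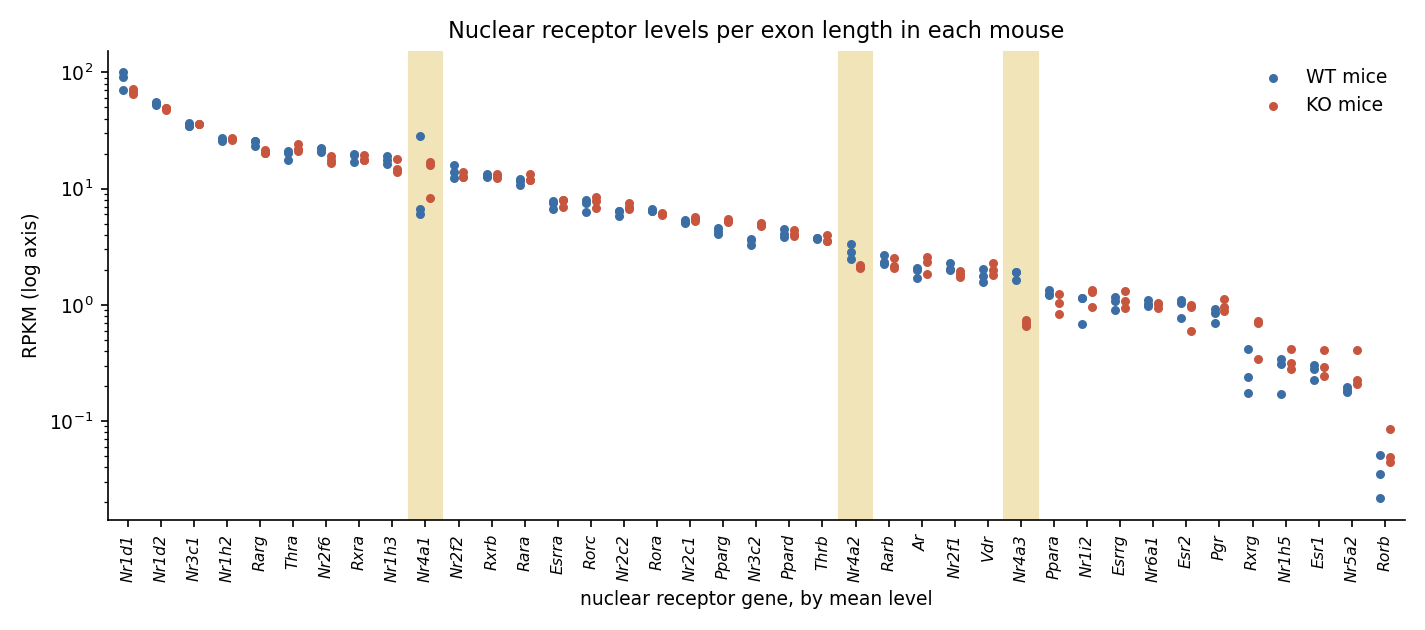
Levels of nuclear receptor genes that passed the filter, in RPKM on a log axis, ordered by the mean of 6 mice, with WT mice in blue, KO mice in red and the Nr4a genes shaded. Nr4a1 spreads from 6.10 to 28.2 RPKM, and the KO points of Nr4a3 (0.652 to 0.734 RPKM) lie apart from its WT points (1.64 to 1.91 RPKM).

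Of the 46 other nuclear receptor genes, 36 were tested, and their median logFC was 0.05. Nr3c2, the mineralocorticoid receptor, was higher in KO mice, at 32.5, 31.1 and 31.5 CPM against 24.0, 21.2 and 23.3 CPM (logFC 0.47, adjusted p = 0.0186 from edgeR), and Rarg, a retinoic acid receptor, was lower, at 86.7, 91.9 and 86.7 CPM against 110.1, 109.8 and 98.6 CPM (logFC -0.26, adjusted p = 0.0488). Rarg lost its call in all 6 fits that left out 1 mouse (adjusted p 0.0521 to 0.181), under the replicate block (0.0947) and with library totals alone (0.0871), and Nr3c2 lost its call in 3 of the 6. EdgeR did not call the other 34, and its calls, 1 higher and 1 lower, are 2.78% of the list in each direction, near the shares of all genes. DESeq2 called 1 higher and 4 lower. Nr1d1 had a logFC of -0.36 with an adjusted p of 0.136 in edgeR and 0.0359 in DESeq2.

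The 3 profiles over the 6 libraries were compared as log2 CPM centred on each gene's own mean, with likeness taken as the root mean square difference over the 6 libraries among 15384 genes with a mean of at least 1 CPM. Nr4a2 and Nr4a3 differed least within the family (0.463), though 390 genes were nearer to Nr4a3 than Nr4a2 was and 13690 nearer to Nr4a2 than Nr4a3 was, followed by Nr4a1 and Nr4a2 (0.766) and by Nr4a1 and Nr4a3 (1.09). Nearest to Nr4a1 were Zfp36 (0.308), which encodes an RNA-decay protein, the chemokine Ccl3, the G protein regulator Rgs1, the AP-1 subunit Fosb and the immunoglobulin segment Ighv1-4, whose reads can be shared with near-identical segments. Zfp36, Rgs1 and Fosb are immediate early genes of the list described in the next paragraph. Nearest to Nr4a2 were Proca1 (0.0353), Gm8399, the mitochondrial complex I gene mt-Nd6, the tubulin Tubb6 and the histone gene Hist2h3c2. The last is 1 of a family of near-identical copies, and counts of mt-Nd6 may include reads of the other mitochondrial strand.

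Nearest to Nr4a3 were 4 genes of the HSP70 and HSP90 chaperone system, followed by Gm15459. The co-chaperone Dnaja1 (0.0915) measured 279.5, 333.6 and 361.0 CPM in WT4, WT5 and WT6 and 132.5, 145.0 and 141.9 CPM in KO4, KO5 and KO6. The co-chaperone Dnajb1 had 82.7, 94.4 and 97.3 CPM in WT mice and 39.4, 43.5 and 42.8 CPM in KO mice, and the HSP90 activator gene Ahsa2 58.2, 68.9 and 72.1 CPM against 28.6, 32.01 and 33.7 CPM. Hspa8, the constitutive HSP70, was the most abundant, with 1462, 1490 and 1884 CPM in WT mice and 709.7, 724.0 and 743.6 CPM in KO mice. Like Nr4a3, each of them was lower in all 3 KO mice than in any WT mouse, with logFC values from -1.22 to -1.08. They were picked for likeness to Nr4a3, which fixes their direction, so no test is given.

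**Figure D4:**
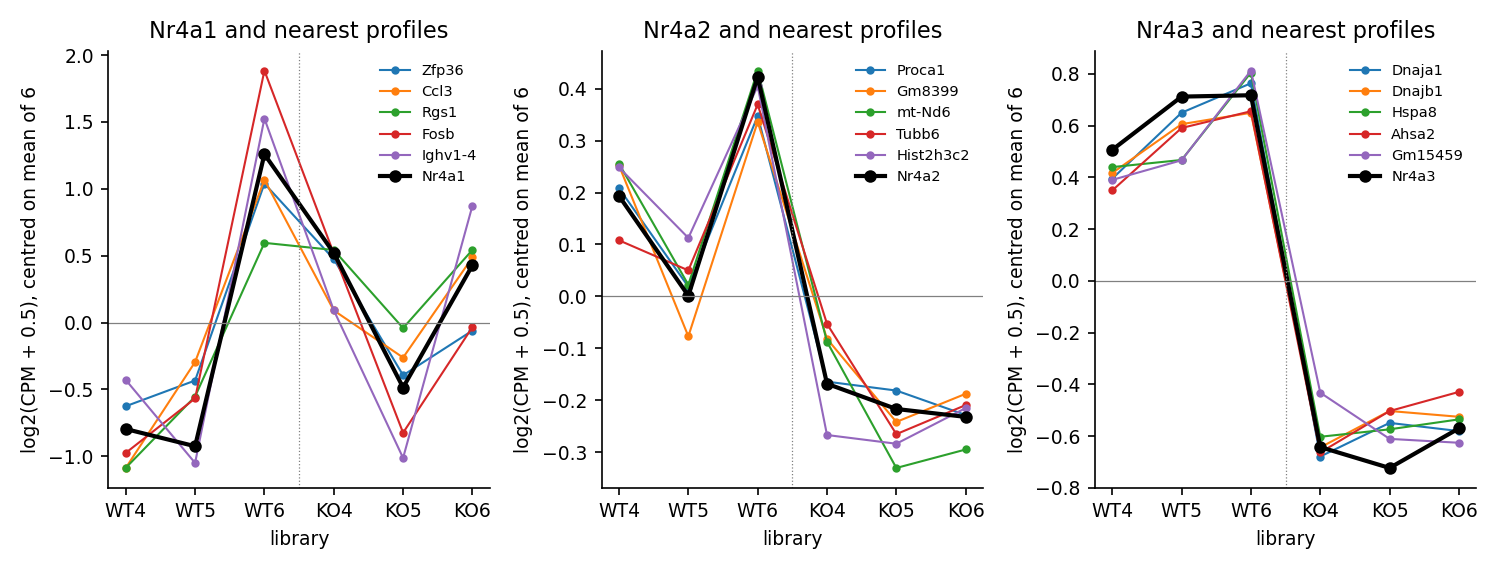
Centred log2(CPM + 0.5) in each library (horizontal axis) for each Nr4a gene (black) and the 5 genes with the nearest profile (colours), with a dotted line between WT and KO mice. Nr4a1 and its neighbours peak in WT6, whereas Nr4a3 and the chaperone genes step down from every WT mouse to every KO mouse.

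Immediate early genes share inducing signals with Nr4a. Of 40 listed genes 38 were tested, 28 of them with a logFC below 0, and the median was -0.18, or 0.02 without WT6. Klf4, a transcription factor of endothelium and myeloid cells, was lower in KO mice, at 139.8, 136.9 and 161.0 CPM against 248.6 to 252.0 CPM (logFC -0.78 with standard error 0.0705, adjusted p = 0.00665 from edgeR), and of the 6 fits that left out 1 mouse it lost its call only in that without WT5. Rgs2, a brake on Gq signalling, was higher, at 94.1, 87.4 and 109.0 CPM against 66.5, 58.8 and 76.7 CPM (logFC 0.52, adjusted p = 0.0457). It kept that call in only 1 of those 6 fits. EdgeR did not call the other 36. Its calls are 2.63% of the list in each direction, near the shares of all genes (3.72% higher and 2.67% lower). DESeq2 called 2 of the 38 higher and 4 lower.

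The pattern of Nr4a1, highest in WT6, was shared by part of this list. WT6 had the highest level in 20 of the 38 genes (52.6%), against 18.0% of all genes tested, but in 10 of these 20 it was less than 2-fold above the mean of WT4 and WT5. Both highest in WT6 and at least 2-fold above that mean were 10 of the 38 genes (26.3%), against 0.311% of all. Fos, a subunit of AP-1, had 18.0, 31.1 and 162.3 CPM in WT4, WT5 and WT6 and 46.7, 12.4 and 34.4 CPM in KO4, KO5 and KO6. Egr1, a zinc finger factor, had 13.6, 28.2 and 116.4 CPM in the WT mice and 55.3, 23.0 and 31.7 CPM in the KO mice. WT6 exceeded the mean of WT4 and WT5 by a factor of 7.34 in Fosb, 6.61 in Fos, 5.58 in Egr1, 2.97 in Zfp36 and 2.69 in Junb, beside 4.41 in Nr4a1, 1.26 in Nr4a2 and 1.08 in Nr4a3. In Nr4a1, Fos, Fosb, Egr1, Junb and Zfp36 KO4 was the highest KO mouse and KO5 the lowest.

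Among the factors that switch Nr4a genes on (CREB, CRTC, MEF2, SRF and NFAT with their kinases), 24 of 25 listed genes were tested, with a median logFC of 0.08. Crem, a CREB relative whose gene also yields a short repressor form, was the only one that edgeR called, and it was lower in KO mice, at 15.1, 14.1 and 14.6 CPM against 18.7, 19.3 and 21.02 CPM (logFC -0.43, adjusted p = 0.0286 from edgeR). When single mice were dropped, Crem stayed called only without KO4 and without KO5. The replicate block also removed its call (adjusted p = 0.0914 from edgeR). DESeq2 called 4 of the 24 higher and 1 lower, which was Crem. Creb1 itself had 91.2 to 106.7 CPM in KO mice and 100.9 to 108.2 CPM in WT mice and did not pass (adjusted p = 0.423). Mef2c, a MEF2 factor that B cells, muscle and endothelium use, had 57.4, 99.7 and 56.8 CPM against 43.6, 42.0 and 38.4 CPM. Its adjusted p was 0.0742 in edgeR and 0.00138 in DESeq2.

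Of 14 tested receptors that raise cAMP, edgeR called 2 higher (14.3%, against 3.72% of all genes) and 0 lower, whereas DESeq2 called 4 higher and 1 lower. The GLP-1 receptor Glp1r had 59.3, 52.7 and 57.5 CPM in KO mice and 42.0, 38.6 and 33.9 CPM in WT mice (logFC 0.57, adjusted p = 0.0227 from edgeR). The adenosine receptor Adora2a, which is induced in lymphocytes and myeloid cells, had 7.14, 11.3 and 7.70 CPM against 5.03, 4.12 and 4.59 CPM (logFC 0.94, adjusted p = 0.0426). In the 6 fits that left out 1 mouse, Glp1r kept its call in 3 and Adora2a in 2. Among 11 repressors of MEF2 and CREB activity, Hdac9, a class IIa deacetylase that holds MEF2 silent, was higher at 11.1, 15.8 and 11.7 CPM against 7.65, 8.53 and 8.09 CPM (logFC 0.68, adjusted p = 0.0459). It was the only repressor that edgeR called (9.09% of the list, against 3.72% of all genes called higher). Hdac9 kept its call in 2 of the same 6 fits. The cAMP phosphodiesterase Pde4b had 86.4, 100.3 and 128.9 CPM in KO mice and 195.4, 145.7 and 153.4 CPM in WT mice. Its adjusted p was 0.0637 in edgeR and 0.000685 in DESeq2.

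Of 19 genes named as NR4A targets in other tissues, 14 were tested, with a median logFC of 0.08. Whether they follow the receptors in lung was not tested. Tox, a regulator of T cell exhaustion, was the only one that edgeR called, higher at 5.62, 6.40 and 5.73 CPM in KO mice and 3.30, 3.74 and 3.65 CPM in WT mice (logFC 0.73, adjusted p = 0.0268). Foxp3, the regulatory T cell factor, was low throughout, at 1.12, 1.76 and 1.53 CPM in KO mice and 0.362, 0.815 and 0.679 CPM in WT mice, with an adjusted p of 0.0634. Of 12 tested genes that antigen receptors induce together with Nr4a, 11 had a positive logFC (median 0.84), and edgeR called Irf4 and Tnfrsf4, whereas DESeq2 called 4, without Tnfrsf4. Irf4, a lymphocyte factor, had 18.5, 31.5 and 26.5 CPM in KO mice and 8.25, 7.62 and 10.4 CPM in WT mice (logFC 1.54, adjusted p = 0.0176), and the costimulatory receptor Tnfrsf4 had 2.69, 2.62 and 2.96 CPM against 1.37, 1.58 and 1.75 CPM (logFC 0.81, adjusted p = 0.0390 in edgeR and 0.0519 in DESeq2). Tnfrsf4 lost its call in all 6 fits that left out 1 mouse and under the replicate block (0.101), and Irf4 kept its call in 2 of those 6 fits. T cell markers had a positive logFC in 10 of 10 (median 0.69), with 0 called by edgeR, 6 at an unadjusted p under 0.05 and 4 called by DESeq2. Natural killer cell markers were positive in 8 of 8 (median 0.70), with 1 called higher by edgeR (12.5%, against 3.72% of all genes). The T cell markers summed to 86.5 to 213.1 CPM in KO mice and 90.3 to 105.3 CPM in WT mice, and their part in the antigen receptor genes was not tested.

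Over these 7 lists together, 8 of 146 tested genes (5.48%) were called higher and 3 (2.05%) lower by edgeR. Among all genes the shares were 3.72% and 2.67%, so the pooled lists were near the edgeR background. By list the share called higher ran from 0% (factors that switch Nr4a genes on) to 16.7% (antigen receptor genes, 2 of 12). For 9 of those 12 every KO mouse lay above every WT mouse, against 17.0% of all genes. DESeq2 called 17 of the 146 higher and 11 lower, against 1102 and 811 of the 17037 genes that passed the filter. By DESeq2 the share called was thus larger in the pooled lists than among all genes in both directions. The higher calls fell to 0 without WT5, without WT6 and without KO6 and to 2 without WT4, and the lower calls to 0 without WT5 and to 1 without WT4, WT6 or KO6.

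**Figure D5:**
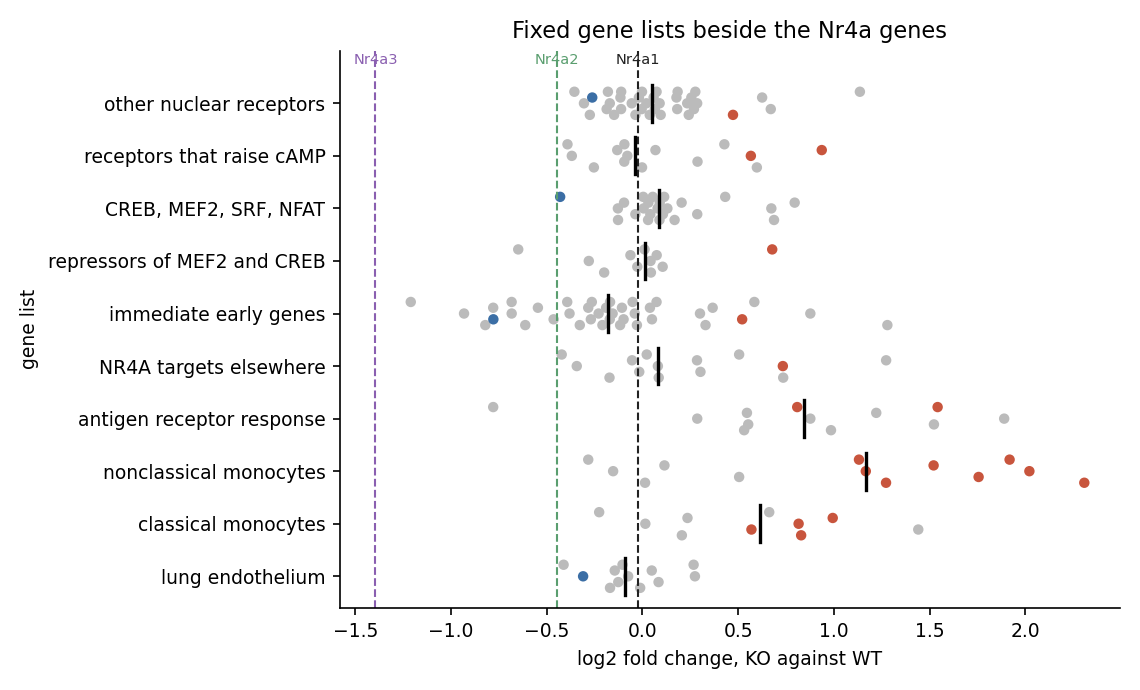
The logFC of KO against WT mice for each tested gene of 10 lists (grey, not called; red, called higher; blue, called lower), with the list median as a black bar and the values of the Nr4a genes as dashed lines. The list medians of receptors and signalling factors lie near 0, and those of monocyte and antigen receptor genes lie to the right, at 0.62 to 1.17.

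Of 13 tested markers of patrolling monocytes, the cells that depend on Nr4a1, 8 were called higher in KO mice (61.5%, against 3.72% of all genes). The list median was 1.17, while Nr4a1 itself overlapped between genotypes. Cx3cr1, the fractalkine receptor, had 33.4, 25.2 and 38.6 CPM in KO mice and 12.96, 10.7 and 10.1 CPM in WT mice (logFC 1.52, adjusted p = 0.0118 from edgeR). Adgre4 had 39.0, 25.9 and 57.4 CPM against 10.5, 6.13 and 7.86 CPM (logFC 2.31, adjusted p = 0.0176), and Cd300e, Pou2f2, Itgal and Spn were called with logFC values from 1.17 to 2.02. The summed level of the 13 markers was 2120 to 2331 CPM in KO mice and 1990 to 2025 CPM in WT mice, and the calls fell to 0 without WT5, to 0 without WT6 and to 5 without WT4. Ace, which lung endothelium also expresses, made up most of that sum, at 1354 to 1640 CPM in KO mice and 1430 to 1477 CPM in WT mice, and was not called. Of the 13, 11 had a positive logFC and 2 a negative one, Klf2 (-0.28) and Cebpb (-0.15). Klf2 had 141.4, 188.1 and 174.9 CPM in KO mice, below all WT mice (198.6 to 209.3 CPM), and was not called. Klf2 and Cebpb of this list are expressed in many cell types, and Klf2 and Eno3 are in other lists too.

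Markers of other cells differed between the genotypes to varying extents. Classical monocyte markers were called higher in 4 of 10 (40.0%, against 3.72% of all genes), among them the chemokine receptor Ccr2 (logFC 0.83). The 10 summed to 1327 to 1683 CPM in KO mice and 1005 to 1342 CPM in WT mice. For all 10 B cell markers the lowest KO mouse was above the highest WT mouse, against 17.0% of all genes. Their summed level was 266.1 to 1146 CPM in KO mice and 142.3 to 156.6 CPM in WT mice. Of those 10, edgeR called 0 and DESeq2 8, and 10 had an unadjusted p under 0.05 in edgeR, as did 4347 of all 17037 genes. Of 7 tested neutrophil markers 3 were called higher (42.9%, against 3.72% of all genes), with a list median of 1.01. Their sums were 152.5 to 174.9 CPM in KO mice and 58.9 to 99.0 CPM in WT mice, and without WT5, WT4 or KO6 0 were called. Red cell markers were lower, with 5 of 6 called (83.3%, against 2.67% of all genes) and sums of 1037 to 1413 CPM against 2130 to 2280 CPM. Cldn5, a tight junction gene, was the only one of 12 endothelial markers that edgeR called, lower in KO mice (logFC -0.31, adjusted p = 0.0362). That call was lost in all 6 fits that left out 1 mouse (adjusted p 0.0528 to 0.138) and under the replicate block (0.0949). The sums of smooth muscle markers overlapped, at 450.9 to 587.5 CPM in KO mice and 575.3 to 859.9 CPM in WT mice. Of these 6 markers edgeR called 0 and DESeq2 4. In edgeR 5 had an unadjusted p under 0.05, against 4347 of all 17037 genes. The classical monocyte calls fell to 0 without WT5 or WT6 and to 1 without KO6, and the red cell calls to 0 without WT5, WT6 or KO6 and to 3 without WT4. No marker of these lists was at 0 in every library. Whether the makeup of the tissue had a part in the lower Nr4a2 and Nr4a3 levels was not tested.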

How the data were processed

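Stranded mRNA libraries of whole lung were made from 6 mice. According to the labels and the methods, the authors trimmed reads (Trimmomatic 0.36), aligned them to GRCm38 (STAR 2.5.3a) and deposited whole, unnormalized counts per Ensembl gene (HTSeq 0.6.0). The annotation release and strand setting are not given in the sources used here. The counts were fitted in R 4.3.3 with edgeR 4.0.16 (glmQLFit, glmQLFTest) with TMM scaling, filterByExpr (minimum count 10, minimum total 15) and Benjamini-Hochberg adjustment over all genes tested, without covariates. Standard errors are the size of the logFC over the square root of F. Alternatives were DESeq2 1.42.0, its size factors, library totals alone, other filters, a replicate block and each mouse left out. RPKM used union exons of GENCODE release 21, with a pseudocount of 0.1 on the log scale. Promoter windows came from RefSeq (GRCm38.p6), where all 3 members matched by symbol.

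The members and the gene lists were chosen with earlier results of these data known. Named were the members, Zpbp2, called genes of each list (at most 6, by adjusted p) with those its background concerns, and the 5 genes nearest to each member in profile. For the marker lists fewer are named. Creb1, Mef2c, Pde4b, Foxp3, Nr1d1 and the immediate early genes high in WT6 were chosen after their values were seen, as were Xist and Ddx3y and the neighbours in the receptor ranking. The fit was tested on simulated counts.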

Additional observations from a re-analysis of the deposited data

How the results depend on the processing

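Nr4a2 and Nr4a3 kept their direction under every alternative run, whereas Nr4a1 moved from -0.02 to 1.09 without WT6 (range with 1 mouse left out -0.37 to 1.09). The level differences within the family kept their direction throughout, at 2.04 to 2.40 (Nr4a1 over Nr4a2), 3.03 to 3.59 (Nr4a1 over Nr4a3) and 0.959 to 1.20 (Nr4a2 over Nr4a3) with 1 mouse left out, where 5 mice allow no p below 0.0625. Over all genes, DESeq2 called 1102 higher and 811 lower, and with 1 mouse left out there were 0 to 797 higher and 1 to 481 lower calls. In the 7 lists, DESeq2 called 17 higher and 11 lower, no filter gave 6 lower calls, and with 1 mouse left out there were 0 to 10 higher and 0 to 4 lower. The cause of these changes was not tested.

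With a replicate block, 30 genes were higher and 36 lower, with 1 and 1 in the lists, and the logFC was 0.30 for Nr4a1, -0.43 for Nr4a2 and -1.39 for Nr4a3. Deviations of same-numbered libraries correlated at -0.05, -0.17 and -0.02, and those of other WT and KO libraries at -0.25 to 0.29. With 3 mice per group these values cannot tell whether the numbers pair the mice.

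Fos, Fosb, Egr1, Junb and Zfp36 turned to higher in KO mice without WT6, and with 1 mouse left out their logFC ran from -1.66 to 0.33, -1.27 to 0.84, -0.999 to 0.81, -0.62 to 0.32 and -0.44 to 0.58 in this order. Zfp36 also turned under the block (0.011) and without KO5 (0.024). Of 347 values of the 29 named list genes under the alternatives, 252 kept direction and side of the threshold, 82 lost the call, 6 gained one and 7 turned.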
